A study of Mus musculus with 3 samples.

Results

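Along chromosome 9 of both libraries made from cells of donor animal 6, single-nucleotide polymorphisms (SNPs) at which almost no read carried the B6 allele were scattered among SNPs at which both alleles were read. They lay in 2 segments, a proximal one at chr9:35047364-48901001 and a distal one at chr9:56127565-66713763 (GRCm38), 13.85 and 10.59 Mb long. The members described here are the 1932 SNPs of these segments with at least 20 allelic counts in each of 3 libraries (1125 proximal, 807 distal), of 5676 SNPs listed in them and of 142064 that reach that depth in the whole series. The segment limits were set from the B6 shares of these same libraries, so the low shares inside them are given as a description and no test supports them.

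The study asked whether allele-specific states set in a hematopoietic stem cell (HSC) persist in the lymphocytes that descend from it, and sequenced exomes to find genes whose DNA is itself imbalanced. Donor cells were from female F1 mice of a B6 (C57BL/6 in the labels, C57BL/6J in the methods) mother and a CAST (CAST/EiJ) father, carried the Ly5.2 form of the leukocyte marker Ly5, and had been injected into sublethally irradiated F1 females whose own cells carried Ly5.1. Each library was DNA of donor-derived cells sorted from 1 recipient. E6.2, injected with 50 HSCs of donor animal 6, gave B220+IgM+ B cells (polyclonal, 58000 cells sorted). E6.43, injected with 1 HSC of donor animal 6, gave CD4+CD8- thymic T cells (monoclonal, 250000 cells). E15.10, injected with 1 HSC of donor animal 15, gave CD4+CD8- thymic T cells (monoclonal, 177000 cells). With 1 library per animal there is no replicate error, clonality and cell type cannot be told apart between E6.2 and the others, donor 15 is represented by 1 animal, and DNA reads do not allow the labelled cell types to be checked against expressed markers.

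In an F1 animal every autosomal position that differs between the parental strains is heterozygous, and reads over it divide between both parental alleles. Loss of heterozygosity (LOH), in which cells retain DNA of only 1 parental allele, arises by deletion, by mitotic recombination or by gene conversion, and shows as a run of neighbouring SNPs that all read 1 allele. Here the B6 share is the number of B6 counts over the sum of B6 and CAST counts at a SNP, and a SNP with a share of at most 0.05 is called low-B6. Values that follow each other with no library named stand in the order E6.2, E6.43, E15.10. Intervals are exact binomial intervals at 95% and cover counting error only, and they are too narrow for sums over SNPs that share reads.

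The layout of the low-B6 SNPs is seen most directly where a low-B6 SNP has a heterozygous neighbour inside the same exon. The following stretches of the GRCm38 reference, plus strand, are coding parts of 5 genes, an olfactory receptor, trehalase (Treh), the tectorial membrane protein Tecta, Uaca and the thrombospondin-domain protein Thsd4, and are shown because both kinds of SNP stand there 1 to 9 bp apart. The capitals mark the member SNPs of each pair by their B6 base. In Treh and Uaca the first capital is the low-B6 SNP, and in Olfr883, Tecta and Thsd4 it is the second. The genes Tecta and Thsd4 lie on the minus strand.
Olfr883 (chr9:38026126-38026186): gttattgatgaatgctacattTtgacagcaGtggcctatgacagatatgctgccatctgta
Treh (chr9:44684630-44684690): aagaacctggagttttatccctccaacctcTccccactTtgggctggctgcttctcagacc
Tecta (chr9:42367087-42367147): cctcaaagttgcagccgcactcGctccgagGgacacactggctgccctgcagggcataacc
Uaca (chr9:60869877-60869937): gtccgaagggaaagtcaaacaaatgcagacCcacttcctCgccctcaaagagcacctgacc
Thsd4 (chr9:59982764-59982824): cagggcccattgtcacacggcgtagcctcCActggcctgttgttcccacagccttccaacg

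At the low-B6 position of Olfr883 (38026156) the B6 base was read in 5 of 208, 0 of 107 and 16 of 33 counts. At its neighbour 9 bp away the B6 base was read in 94 of 209, 43 of 105 and 16 of 29 counts. The total counts of both positions were thus nearly equal in each library, and only the E6 libraries told them apart.

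In Treh the low-B6 position (44684660) read B6 in 4 of 116, 0 of 68 and 66 of 126 counts, and the position 8 bp away in 61 of 106, 39 of 63 and 64 of 122. In Tecta (42367117) the values were 4 of 137, 0 of 93 and 42 of 67 against 82 of 138, 41 of 90 and 43 of 70. The pattern was the same in the distal segment. In Uaca (60869907) B6 made up 3 of 115, 0 of 85 and 52 of 86 counts, against 64 of 114, 43 of 80 and 50 of 84 at its neighbour. In Thsd4 the adjacent bases 59982794 and 59982793 gave 2 of 90, 0 of 74 and 33 of 67 against 35 of 90, 37 of 74 and 34 of 68. For Thsd4 the total counts of both bases were equal in both E6 libraries.

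Pairs of this kind, neighbouring members at most 10 bp apart of which one was low-B6 and the other within 0.25 to 0.75 in both E6 libraries, numbered 17, in 15 genes. Summed over the pairs, the low-B6 SNPs read B6 in 2.59% of 1739 counts (interval 1.89 to 3.45), 0.0846% of 1182 (0.00214 to 0.471) and 53.6% of 1070 (50.5 to 56.6). Their neighbours read B6 in 52.9%, 48.9% and 53.7%. The neighbour was higher in 17 of 17 pairs in E6.2 and in E6.43, which the choice of pairs fixes. E15.10 took no part in the choice of pairs. It was part of the contrast that chose the segments, so balanced shares in it follow in part from that choice. In E15.10 the neighbour was higher in 5 of 17 pairs. The rest there were divided between pairs with equal shares, as in Slc37a2 (40 of 74 counts at both SNPs), and pairs with a lower neighbour, as in Uaca. The ratio of total counts, low-B6 over neighbour, was not used in the choice and was 1.016, 1.011 and 1.008, beside 1.005, 1.005 and 0.998 between the members of 106 pairs in which both SNPs were heterozygous. In 22 further pairs both SNPs were low-B6.

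**Figure D1:**
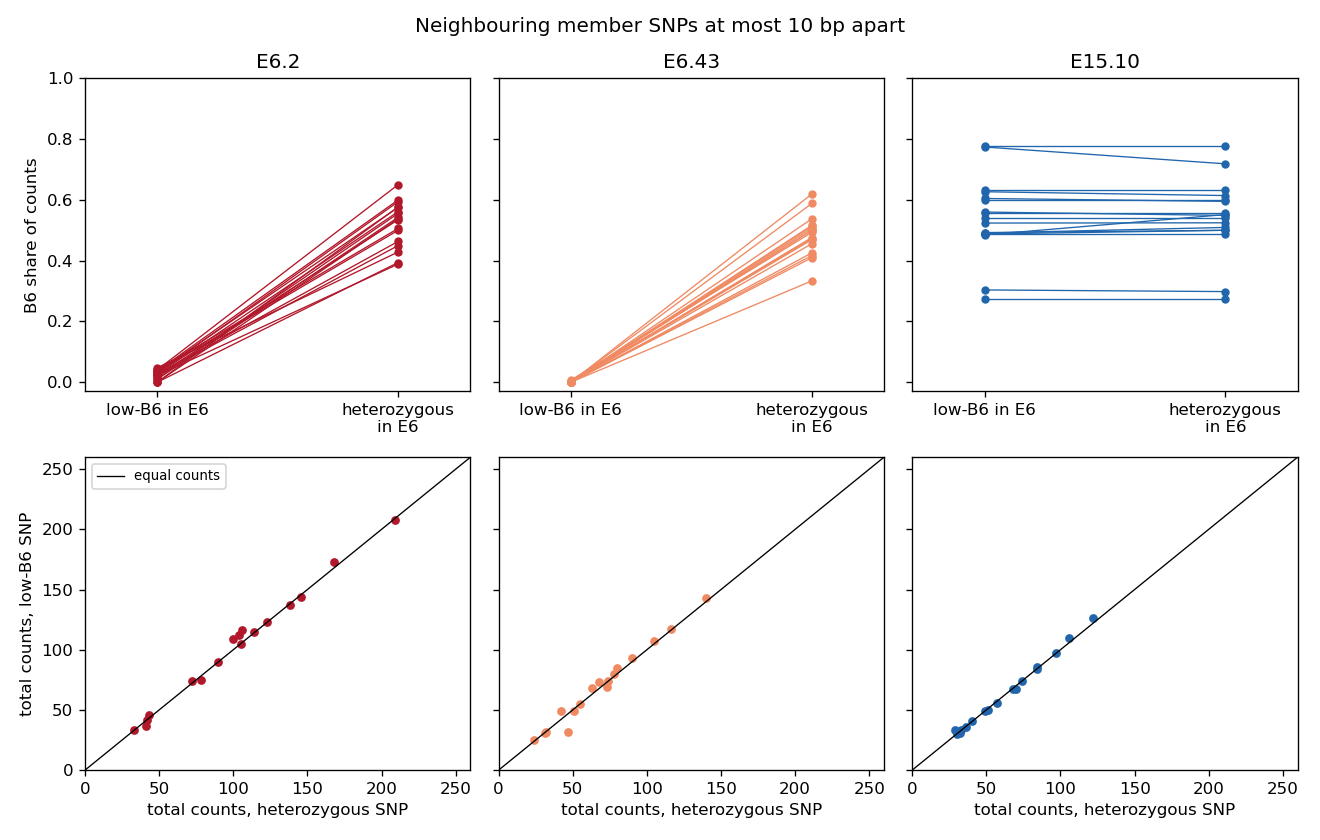
Neighbouring SNPs at most 10 bp apart, of which one was low-B6 and one heterozygous in both E6 libraries (17 pairs, 1 point or line per pair, columns are the libraries). The upper row plots the B6 share of both SNPs, which differs in E6.2 and E6.43 and is nearly level in E15.10; the lower row plots their total counts, with the line of equal counts, from which the sums differ by a ratio of 1.008 to 1.016.

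Over all members, 345 of 1932 SNPs were low-B6 in E6.2 (17.86%, interval 16.2 to 19.6), beside 0.994% of all 138659 autosomal SNPs of the same depth. In E6.43 they numbered 391 (20.24%, 18.5 to 22.1), beside 1.13%, and in E15.10 1 (0.0518%, 0.00131 to 0.288), beside 0.14%. Since the segments were drawn around these SNPs, the excess over the autosomes is the choice itself. In both E6 libraries together 344 members were low-B6 (17.81%, against 0.974% of the autosomal SNPs). The segments were alike in this, with 209 of 1125 (18.58%) in the proximal and 135 of 807 (16.73%) in the distal one.

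Most members were not low-B6. Of the 1932, 1473 (76.2%) lay within 0.25 to 0.75 in both E6 libraries. The study excluded whole genes outside these limits, and here they are applied to single SNPs. The median share of all members was 0.517, 0.505 and 0.542. Few lay in between: in E6.2 43 SNPs fell between 0.05 and 0.1 and 13 between 0.1 and 0.25, and in E6.43 2 and 17. Of the remaining classes, 44 SNPs were at most 0.1 in both E6 libraries without passing 0.05 in both, and 71 stood outside the limits in at least 1 of them, 23 under 0.25 (17 genes) and 48 over 0.75 (27 genes). Around the limit of 0.05, the highest SNP inside it in E6.2 was in Pml (58249710, 2 of 40 counts) and the lowest outside it in Olfr876 (37804807, 7 of 138). In E6.43 these were in Olfr891 (38180466, 2 of 60) and in Hspa8 (40801301, 4 of 63). The same Hspa8 position was the 1 low-B6 member of E15.10 (1 of 31 counts), and the next lowest there was in Herc1 (66473484, 4 of 31).

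**Figure D2:**
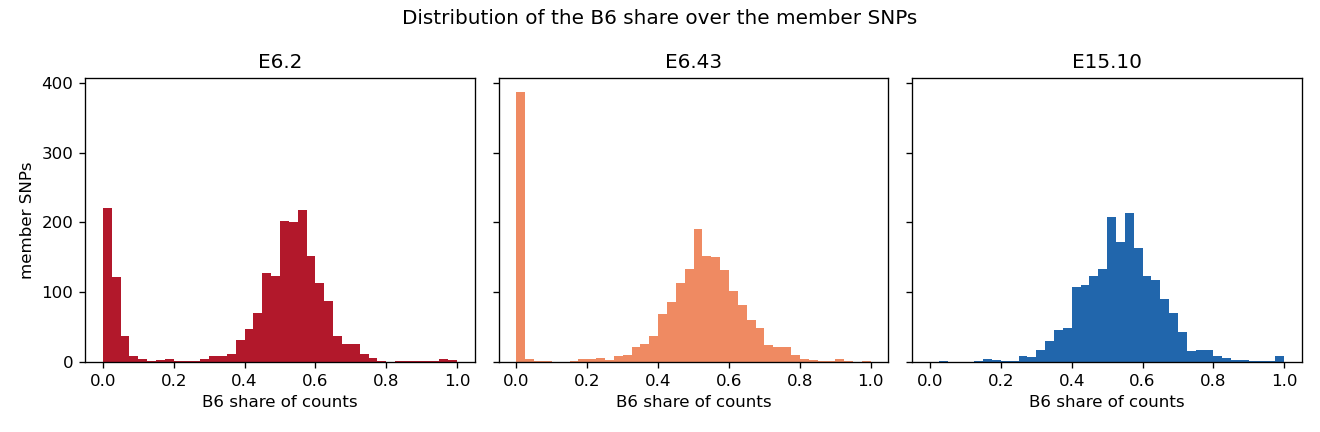
Number of member SNPs (vertical axis) by B6 share of counts (horizontal axis, bins of 0.025) in each of the 3 libraries. E6.2 and E6.43 have a second peak near 0, made of 345 and 391 SNPs at or under 0.05, which E15.10 (1 SNP) does not have.

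The low-B6 positions were nearly the same in both E6 animals, in a description, since both libraries set the limits of the segments. Of the 345 chosen in E6.2, 344 were low-B6 in E6.43, where they read B6 in 0.212% of 25985 counts (interval 0.16 to 0.275) and none exceeded a share of 0.0635. Of the 391 chosen in E6.43, 344 were low-B6 in E6.2, and the other 47 stayed at or under 0.139 there, so that all 391 read B6 in 2.48% of 42026 counts (2.34 to 2.64). In E15.10 these sets of SNPs gave 53.9% and 54.2% B6. The E6 libraries share the donor and the experiment, and E15.10 shares neither, as the study took a different donor for each experiment. With 1 animal of donor 15, a difference between donors cannot be told apart from one between experiments or between animals. Whether donor animal 6 was heterozygous at these positions before the transplantation was not tested, and no exome of its parents or of its other tissues was analysed here.

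A small B6 residue differed in size between the E6 libraries. At the 344 SNPs low-B6 in both, E6.2 had 764 B6 counts of 38048 (2.01%, interval 1.87 to 2.15) and E6.43 had 51 of 25922 (0.197%, 0.147 to 0.259). In E6.43 303 of these SNPs had no B6 count at all, and in E6.2 67. These intervals do not overlap, but the SNPs were chosen for low shares in both libraries, each library is 1 animal, and reads of neighbouring SNPs are shared. The paper found contaminating recipient cells in its sorted RNA samples. Their share in these DNA libraries, and whether it bears on the residue, was not tested. In the proximal and distal segments the residue was 1.99% and 2.03% in the B cells of E6.2, and 0.159% (interval 0.104 to 0.233) and 0.261% (0.169 to 0.384) in the T cells of E6.43. E15.10 read 53.9% B6 at the same SNPs (12950 of 24007), close to the 53.9%, 53.4% and 53.8% read at the 1473 heterozygous members.

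**Figure D3:**
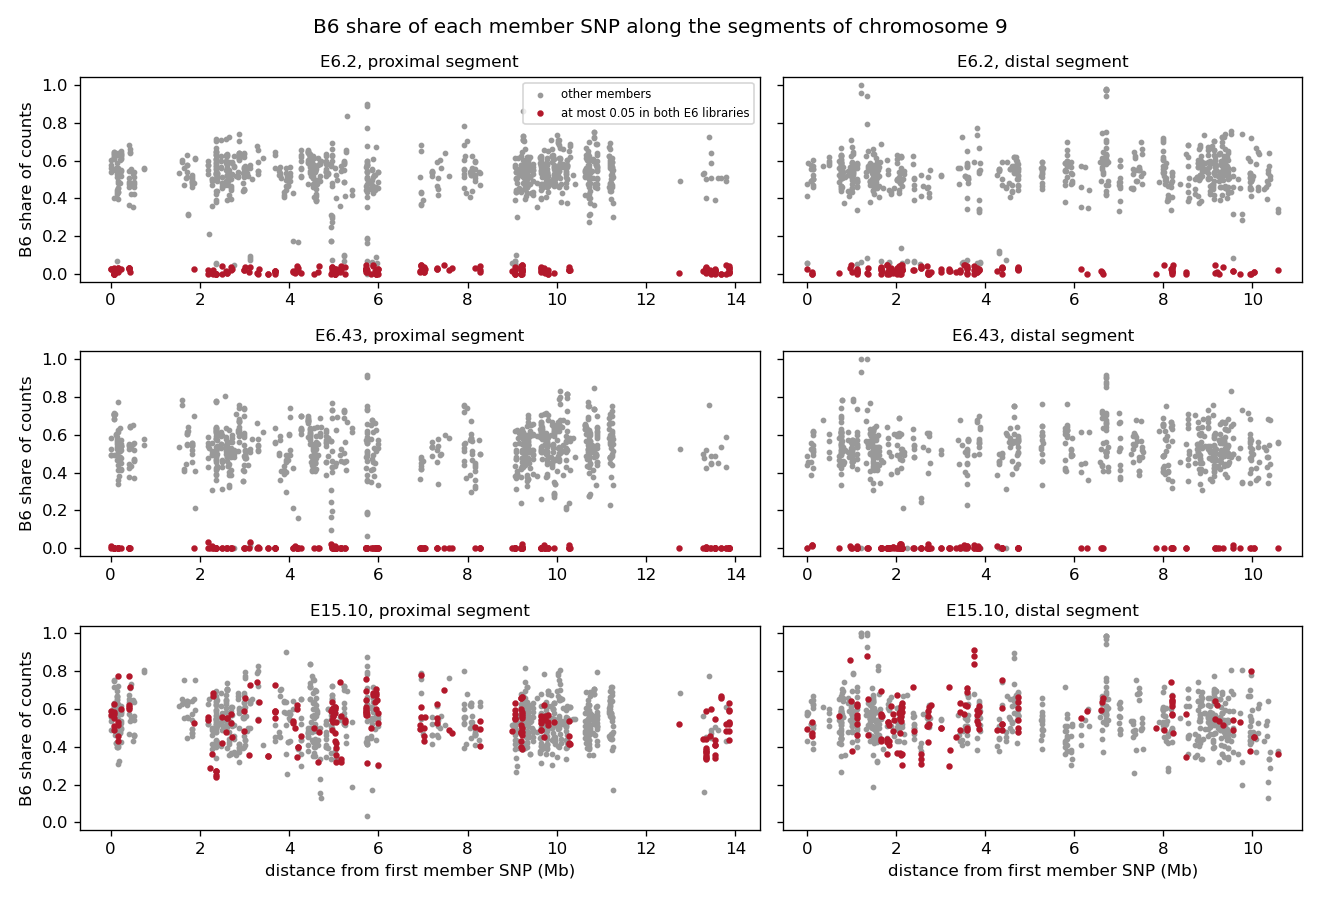
B6 share of counts (vertical axis) of each member SNP against its distance from the first member of its segment (horizontal axis, Mb), for 3 libraries (rows) and both segments (columns). The 344 SNPs at or under 0.05 in both E6 libraries (red) lie along both segments among heterozygous SNPs (grey), and in E15.10 the same red SNPs have shares of 0.241 to 0.913.

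At 3 of the 4 segment ends a low-B6 SNP stood beside a heterozygous one, and the first distal member was low-B6 in E6.43 alone, its share of 0.061 in E6.2 being just over the limit. Before the proximal segment, Kirrel3, a nephrin-like adhesion molecule, read B6 in 52 of 89, 40 of 76 and 46 of 82 counts. The first member, in the sialyltransferase gene St3gal4, read it in 3 of 107, 0 of 72 and 42 of 74. The limit thus fell between those genes, while the other 3 limits each cut through a gene. Most members inside the segments were heterozygous too, so a heterozygous SNP beyond a limit does not place a change there.

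In Htr3a, a subunit of a serotonin-gated channel, the last proximal member (48901001) read B6 in 2 of 154, 0 of 93 and 83 of 159 counts, and the next SNP of the same gene, at 48908696, in 59 of 102, 31 of 63 and 27 of 68. In Pstpip1, a cytoskeletal adaptor of blood cells, the SNP at 56123251 read it in 75 of 130, 50 of 114 and 70 of 139 and the first distal member, at 56127565, in 5 of 82, 0 of 58 and 28 of 49. In the carbonic anhydrase gene Car12 the last member (66713763) read it in 1 of 50, 0 of 38 and 13 of 36 and the SNP at 66747838 in 17 of 38, 26 of 46 and 16 of 40. Each end is a description of where the limits were set.

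Beyond the segments low-B6 SNPs were nearly missing on this chromosome, which follows in part from where the limits were set. Of the 5174 other SNPs of chromosome 9 with the same depth, 3 were low-B6 in both E6 libraries, and of the 488 that lie between the segments, 1. That 1, in Dlat at 50640183, read 0 B6 counts of 112, 115 and 64, and the one in Gm25086 read 1 of 49, 1 of 40 and 0 of 25, so both were low in E15.10 also. The third, in Xirp1 at 120016907, read 1 of 146, 2 of 87 and 63 of 139, the pattern of the segments.

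Within the segments the low-B6 SNPs were distributed unevenly. By windows of 1 Mb from the first member, their share of the members ran from 0% in a proximal (42 members) and a distal window (38 members) to 70.45% in the last proximal window, where 31 of 44 were low-B6, among them all those of Htr3a. The next highest with over 20 members were 2 neighbouring distal windows, with 31 of 75 (41.33%) and 26 of 66 (39.39%). The median share of the last proximal window was 0.0252, 0 and 0.464. In all other proximal windows with over 20 members it was above 0.4 in both E6 libraries. In the 2 distal windows just named it was 0.389, 0.214 and 0.532, and 0.201, 0.125 and 0.549.

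**Figure D4:**
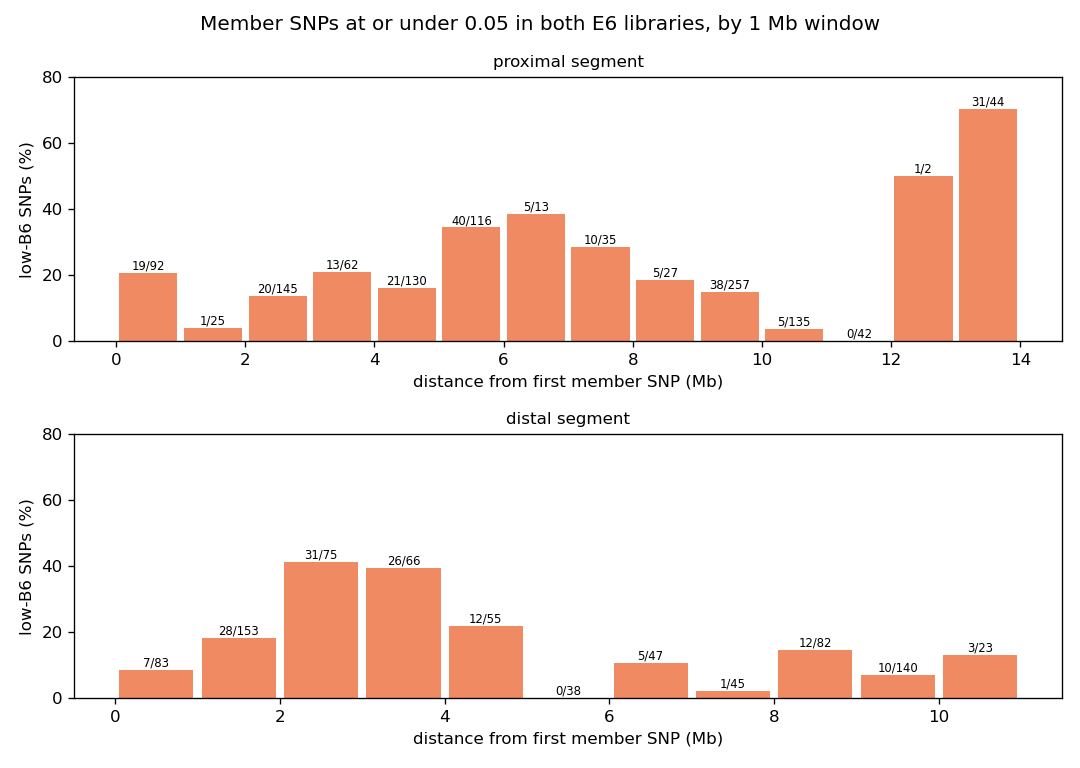
Percentage of member SNPs at or under a B6 share of 0.05 in both E6 libraries (bars), by 1 Mb window of distance from the first member, with the number of such SNPs over all members above each bar. The bars run from 0% to 70.45% and are highest in the last proximal window, while the window with 1 of 2 rests on 2 SNPs.

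Read along the chromosome, the 344 low-B6 SNPs formed 188 stretches of neighbouring members. Of these, 119 were a single SNP, 31 were pairs, 28 held 3 or 4 SNPs and 10 held at least 5, and the latter held 67 SNPs (19.5%). By the definition that asks for at least 5 SNPs in a row low-B6 in all 3 libraries, no run was found. The definition by both E6 libraries was therefore added once the values were known.

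Changes from one class to the other occurred at every distance, and no expected rate for unclustered SNPs was worked out. Of 1739 pairs of consecutive members that were each either low-B6 or heterozygous in both E6 libraries, 486 held a low-B6 SNP and in 330 of those (67.9%) the other was heterozygous. At 1 to 10 bp this was so in 17 of 39 (43.6%), at 11 to 100 bp in 75 of 139 (54%), at 101 to 1000 bp in 74 of 100, at 1001 to 10000 bp in 78 of 96 (81.2%) and beyond 10000 bp in 86 of 112 (76.8%). A low-B6 SNP thus had another beside it more often within 100 bp than at the longer distances, which is given with no test because close SNPs share reads. Stretches without a low-B6 SNP were long by comparison. From Tmprss13 on, 124 members of 17 genes over 0.962 Mb held no low-B6 SNP and 121 of them were heterozygous in both E6 libraries, and their summed B6 share was 54.2%, 55.5% and 54.1%. In the distal segment 81 members of 10 genes from Megf11 to Cilp, over 0.638 Mb, held none, and 80 of these were heterozygous.

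The runs covered genes of many roles. The longest, 10 SNPs over 67.9 kb, lay in the olfactory receptor genes Olfr980, Olfr981 and Olfr982 and read B6 in 1.03% of 1364, 0.316% of 950 and 56% of 370 counts. The run of 9 SNPs in Zbtb16, the gene of a zinc-finger transcription factor of innate-like lymphocytes, and Htr3a ended the proximal segment and read 2.13% of 988, 0% of 694 and 54.2% of 1023. A 7-SNP run in Pdzd3, a PDZ-domain scaffold gene, read 2.53% of 632, 0% of 427 and 53.7% of 551.

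A further 6 runs held 5 to 7 SNPs, in Dcps with 4930581F22Rik, in Olfr943, Olfr944 and Olfr1537, in Gm16096, in Nxpe4, in Nnmt and in Pml. In E6.43 their B6 share was 0% in 3 of these 6 and at most 1.23%, the latter in Pml. For E6.2 it ran from 0.712% (Dcps) to 2.79% (Gm16096), and in E15.10 from 35.6% (Nxpe4) to 61.2% (Gm16096). Reads of olfactory receptor genes may be shared with near-identical family members, and their values are less certain.

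Members lay in 331 genes, of which 302 were protein coding, and 133 of them held at least 1 low-B6 SNP. In 118 of the 133 low-B6 and other SNPs occurred in the same gene, and in 15 every member was low-B6, 9 of these with a single member. Only Htr3a and Gm16096 had at least 5 members all of them low-B6. In Htr3a all 8 were, from 48899677 to 48901001, with 17 B6 counts of 902, 0 of 624 and 504 of 925. In Gm16096, a noncoding gene beside Hspa8, all 7 lay within 69 bp and read 14 of 502, 0 of 284 and 191 of 312, so these SNPs share their reads. In Pdzd3 9 of 10 were low-B6, and its members read 52 of 795, 23 of 585 and 375 of 708.

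The best covered mixed genes held few low-B6 SNPs among many heterozygous ones. Hspa8, a constitutive heat-shock chaperone, had 2 low-B6 of 28 members, the histone methyltransferase gene Kmt2a had 3 of 27, the olfactory receptor gene Olfr979 had 3 of 14, Treh had 3 of 17 and Cdon, a cell-surface co-receptor, had 5 of 17. In Kmt2a the low-B6 SNPs at 44848089 and 44848124 read 0 of 70 and 0 of 86 counts in the B cells of E6.2, 0 of 39 and 0 of 48 in the T cells of E6.43, and 34 of 60 and 36 of 68 in those of E15.10. The whole-gene B6 share of Kmt2a was nonetheless 0.481, 0.501 and 0.508 in the 3 libraries. Of the 28 members of Hspa8, 18 were heterozygous in both E6 libraries. Another 3 had shares of 0.162 to 0.193 in the E6 libraries, between the low-B6 and the heterozygous ones. Hspa8 has many processed copies in the genome, and whether these bear on its shares was not tested.

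In the distal segment Thsd4 held 10 of 31, Peak1, a pseudokinase gene, 3 of 17, Uaca 6 of 18, Gramd2 5 of 15 and Cilp, a cartilage protein gene, 1 of 18. The members of Thsd4 read 778 B6 counts of 2837, 558 of 2114 and 1003 of 1835. Between these genes stood well covered genes with none. In the proximal segment these were Dscaml1 (24 members), Il10ra, the interleukin-10 receptor subunit (17), and the axon guidance receptor gene Robo3 (26). In the distal segment they were the proteoglycan gene Cspg4 (31 members), Gm10653 (19) and the mannosidase gene Man2c1 (17). Cspg4 read 1648 of 2902, 1258 of 2249 and 1796 of 3406 B6 counts.

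Summing counts over a gene, as the deposited gene values do over all listed SNPs, placed most genes with a low-B6 SNP within 0.25 to 0.75. Of these 133 genes, 80 had a gene share within 0.25 to 0.75 in both E6 libraries, and 42 were under 0.25 in both. Of the 80, 41 lay between 0.25 and 0.4 in both E6 libraries and 29 within 0.4 to 0.6. In all, 49, 51 and 1 of the 331 genes were under 0.25 (14.8%, 15.4% and 0.302%, the last being Olfr968), beside 2.31%, 2.48% and 1.63% of autosomal genes with at least 10 counts. In the E6 libraries the gene share fell with the percentage of low-B6 SNPs, as the sum makes it do, and in E15.10 2 of the 133 genes lay outside 0.25 to 0.75.

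**Figure D5:**
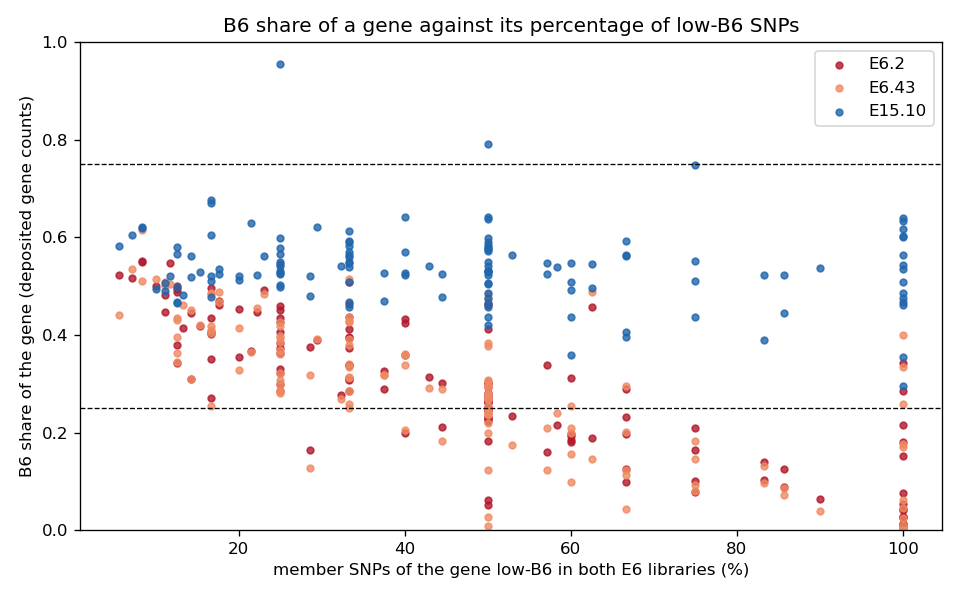
B6 share of each of the 133 genes with a low-B6 SNP, from the deposited gene counts (vertical axis), against the percentage of its member SNPs low-B6 in both E6 libraries (horizontal axis), for 3 libraries (colours), with dashed lines at 0.25 and 0.75. In E6.2 and E6.43 80 genes lie within these lines although they hold low-B6 SNPs, and genes at 100% lie above 0 where SNPs under the depth minimum add B6 counts.

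Genes of lymphocytes and blood held low-B6 SNPs as well. The list of 22 had 174 members, of which 32 (18.4%) were low-B6, beside 17.81% of all members, in 9 of the 22 genes and in none at every member. Pml, the scaffold of nuclear bodies, had 10 of 16, the DNA-binding factor gene Arid3b 6 of 8, the semaphorin gene Sema7a 5 of 10 and Ubash3b, whose product dampens T cell receptor signalling, 4 of 9. Thy1, a surface glycoprotein of T cells, had 1 of 2. No Thy1 member was heterozygous in both E6 libraries, and its members read B6 in 7 of 169, 0 of 146 and 70 of 140 counts. Cd3g of the T cell receptor complex had 1 of 2, while its neighbours Cd3d (13 members) and Cd3e (4) had none. The Cd3g SNP at 44974191 read 1 of 221, 0 of 135 and 56 of 106 B6 counts. For the gene as a whole the share was 0.244, 0.241 and 0.506. The interleukin receptor gene Il10ra, the chemokine receptor gene Cxcr5 and the kinase gene Csk had none.

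Of the DNA damage and genome maintenance list 10 of 13 genes had members. Low-B6 were 13 of their 52 members (25%), beside 17.81% of all members. Of these low-B6 SNPs 10 were in Pml, already counted in the lymphocyte list. The others were 1 each in the glycosylase gene Neil1, in Parp6 and in the replication fork gene Tipin. H2afx, Kif23, Parp16 and Pif1 had none. Among apolipoprotein and lipid transport genes 12 of 49 members (24.5%) were low-B6, beside the same 17.81%. All of them were in the sorting receptor gene Sorl1 (9 of 17) and the lysosomal enzyme gene Hexa (3 of 5). The cluster of Apoa1, Apoc3, Apoa4 and Apoa5 had none among 22 members. Of the cytochrome P450 and steroid list 3 of 22 members (13.6%) were low-B6. Cyp11a1 had 1 of 3 and the retinol transporter gene Stra6 2 of 5, and Cyp1a1 and Cyp1a2 had none. The 60 olfactory receptor genes, the largest family of the segments, held 240 members, of which 44 (18.3%) were low-B6, in 24 genes.

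Low-B6 SNPs differed little from the other members in their place in genes. Coding sequence held 71.8% of the 344 and 74.4% of the 1588 others, untranslated exon parts 13.1% and 12.8%, and noncoding exons 14% and 12.7%. The B6 base itself was unlike: it was C or G at 32% of the low-B6 SNPs and at 53% of the others, A at 37.2% against 22.6% and T at 30.8% against 24.4%. A CpG of the reference held 12.5% of the low-B6 SNPs and 19.8% of the others. The nearest other member lay at a median of 54 bp from a low-B6 SNP and of 76 bp from another member. These are descriptions with no test, since neighbouring SNPs are not independent.

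The total counts did not set the low-B6 SNPs apart by much. Their mean was 0.962, 0.957 and 0.981 of that of the other members. Relative to E15.10 this was 0.981 for E6.2 (counting interval 0.963 to 0.998) and 0.975 for E6.43 (0.957 to 0.994). It was 0.949 and 0.945 as a median over genes with both kinds of SNP, but 1.008 and 1.004, on the other side of 1, in the pairs at most 10 bp apart. The members as a whole had 0.961, 0.968 and 1 times the mean counts of the other autosomal SNPs.

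An interval of chromosome 7 also held low-B6 SNPs of both E6 libraries. The paper's methods report a large deletion common to all E6 samples and name no chromosome for it. Whether that deletion is this interval was not tested. From percentile 1 to percentile 99 of the positions of its SNPs that were low-B6 in these and within 0.25 to 0.75 in E15.10 (chr7:29721280-35776198), 620 of 725 SNPs (85.5%) were low-B6 in both E6 libraries, against 344 of 1932 in the chromosome 9 segments. The residue there was 2.06% and 0.256% in the E6 libraries, close to the 2.01% and 0.197% of chromosome 9. Both regions were chosen by their low shares, and the difference was not tested. Over all autosomes, SNPs low-B6 in both E6 libraries and within 0.25 to 0.75 in E15.10 numbered 631 on chromosome 7, 334 on chromosome 9, 117 on chromosome 15 and 78 on chromosome 12, and at most 2 on any other.

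The E6 libraries were also compared with each other. Both set the segment limits, and SNPs low-B6 in both cannot differ by more than 0.05, so the comparison bears on the other members. By Fisher's exact test at each SNP, adjusted by Benjamini-Hochberg over the 138659 autosomal SNPs, 9 members differed (0.466%, against 0.357% of the autosomal SNPs), and 245 (12.7%, against 11.8%) had an unadjusted p under 0.05. It compares these libraries and not monoclonal with polyclonal animals. The smallest adjusted p was 0.0194, in Ankdd1a at 65504560, with 90 of 122, 47 of 105 and 45 of 85 B6 counts. In Kmt2a the SNP at 44810935 read 83 of 178, 90 of 126 and 44 of 94 (Fisher's exact test, adjusted p = 0.0223). In 7 of the 9 the share was lower in E6.43, and with nearly the background share of calls nothing is read from them about the segments. Against E15.10, the contrast that chose the segments, 413 members were lower in E6.2 (21.4%, autosomal SNPs 1.75%) and 407 lower in E6.43 (21.1%, autosomal SNPs 1.74%), among them 338 and 340 of the 344.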

How the data were processed

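DNA of sorted lymphocytes of 3 animals was captured with a mouse exome kit and sequenced by the authors, who deposited counts of B6 and CAST reads for each gene and each SNP of it. The submitters' processing notes name Trim Galore, cutadapt 1.14, STAR 2.5.4a, SAMtools and GATK. The methods name the ASEReadCounter* pipeline for the exome reads and give its settings with the RNA reads: STAR alignment to the maternal reference genome and to an imputed paternal one, keeping uniquely aligned reads. A preference for the reference allele would raise the B6 share. The per-SNP positions and counts are deposited as lists within a gene's line (other values), and the authors' table of calls was not used. The libraries of E6.2, E6.43 and E15.10 held 19471576, 13036005 and 10863972 allelic counts. The labels give spleen as the source of the E6.2 B cells and the methods another tissue, and no result uses it.

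SNPs with at least 20 counts in each library were kept (Python 3.11.15, numpy 2.4.6, pandas 2.3.3, scipy 1.17.1), and 0 duplicate positions were removed. Genes were named from GENCODE release 21 for GRCm38, which held 330 of 331. Fisher's exact test was tested on simulated data. Members and gene lists were chosen with earlier results of these data known. Named genes were the first and last of each segment, those at run ends, the best covered that were at least 90% low-B6, mixed or without low-B6 SNPs, those whose libraries differed by at least 0.25, and the listed genes. As no gene was 90% low-B6 in every library, both E6 libraries were used, a choice made after seeing the data. The values of 1 run are not reported here.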

Additional observations from a re-analysis of the deposited data

How the results depend on the processing

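Of 77 alternative values, 42 stayed within the counting interval or within 1.5 times of the count, 33 moved and 2 turned direction, the relative depth of low-B6 SNPs in close pairs, which was above 1 in both E6 libraries (1.008 and 1.004) where the reported values were below 1 (0.981 and 0.975). The percentage of low-B6 members of E6.2 was 5.23% at a limit of 0.01, 20.1% at 0.1 and 20.8% at 0.25. That of E15.10 was 0% at a minimum of 50 counts and at a limit of 0.01, and 0.725% at 0.25. No run was low-B6 in all 3 libraries, but E6.2 on its own had 10 and E6.43 on its own 17. With both E6 libraries, a choice made after seeing the data, the 10 runs became 38 with at least 3 SNPs, 1 with at least 10, 24 with 1 SNP bridged, 2 at a limit of 0.01 and 17 at 0.1 and at 0.25. The B6 residue in runs (1.87% in E6.2, 0.209% in E6.43) was 2.48% in E6.2 at SNPs chosen in E6.43, and 0% in E6.43 as a median over SNPs. The relative depth in E6.2 was 0.949 against members of the same gene, 0.957 in the distal segment, 0.946 against all other autosomal SNPs and 0.944 by median counts. In E6.43 these were 0.945 (same gene), 0.949 (autosomal) and 0.936 (median counts). Genes summing to at most 0.05 over their members, 17 in E6.2 and 22 in E6.43, became 42 and 49 by the median SNP share, 8 and 14 by the deposited gene sums, and 5 and 7 with at least 3 members. With SNPs at least 300 bp apart, calls of the Fisher test fell to 4 (E6.43 against E6.2, from 9), 215 (E15.10 against E6.2, from 425) and 211 (E15.10 against E6.43, from 414), as fewer SNPs were tested, and 47 members differed by at least 0.25 between the E6 libraries. The cause of the other changes was not tested. No paired analysis was possible because each group holds 1 library. At 20 counts a share of 0.05 is 1 count, so single shallow SNPs are uncertain.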
